A study of Mus musculus with 9 samples.

Results

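The caseins and whey proteins are the main proteins of milk, and 8 genes for them, chosen by name, were followed through mammary tumors of mice with and without Hsp72. They are Csn1s1, Csn1s2a, Csn1s2b, Csn2 and Csn3, which encode caseins, and Wap, Lalba and Glycam1, which encode proteins of the whey. All 8 were found among the 55401 mouse genes of the count table, and 7 of them had enough counts to be tested.

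KO tumors (n = 5) came from female Hspa1a/Hspa1b-/- mice aged 120 to 125 days, and WT tumors (n = 4) from female Hspa1a/Hspa1b+/+ mice aged 122 to 132 days. Hspa1a and Hspa1b encode Hsp72, the stress-inducible member of the HSP70 chaperone family, and the study asked which tumor processes depend on it. All animals, WT included, carried MMTV-PyMT, the polyoma middle T oncogene under the mouse mammary tumor virus promoter, and the MUC1.Tg transgene on a C57BL/6 background. That promoter is active in mammary epithelium and is itself known to respond to steroid hormones. Tumors were minced and digested to single cells, the cells were pelleted, and ribosomal RNA was depleted before stranded paired-end sequencing, per the labels' protocols. The values are therefore of dissociated cells, not of intact tissue. The sources used here do not say whether a mouse had been pregnant or had lactated. The labels list 9 tumor samples and no animal identifiers, so each p-value reflects only how far these samples spread.

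Caseins bind calcium phosphate and assemble into micelles, and kappa-casein (Csn3) coats the micelle surface and keeps it in suspension. In late pregnancy and lactation, prolactin binds its receptor on alveolar cells, JAK2 phosphorylates STAT5A and STAT5B, and STAT5 dimers enter the nucleus and switch on milk protein genes together with glucocorticoid receptor, ELF5 and other factors. Lalba encodes alpha-lactalbumin, which joins the galactosyltransferase B4GALT1 to form lactose synthase, and Wap encodes whey acidic protein of rodent milk. Glycam1 encodes a mucin-like protein that is secreted into milk and is also made by high endothelial venules of lymph nodes.

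STAT5 dimers bind the palindrome TTCNNNGAA, so the start regions of the members are shown with each match to it in capitals. They run from 250 bases before to 50 bases after the RefSeq transcript start on GRCm38.p6, in the direction of transcription, and 6 of the 8 members were matched to a window.
Csn1s1: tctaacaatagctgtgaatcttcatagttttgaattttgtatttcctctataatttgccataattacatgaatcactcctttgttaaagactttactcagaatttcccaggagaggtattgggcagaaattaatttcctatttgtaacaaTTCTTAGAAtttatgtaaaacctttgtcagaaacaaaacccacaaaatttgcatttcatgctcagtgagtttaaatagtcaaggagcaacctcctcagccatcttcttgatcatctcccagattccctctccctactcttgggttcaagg
Csn2: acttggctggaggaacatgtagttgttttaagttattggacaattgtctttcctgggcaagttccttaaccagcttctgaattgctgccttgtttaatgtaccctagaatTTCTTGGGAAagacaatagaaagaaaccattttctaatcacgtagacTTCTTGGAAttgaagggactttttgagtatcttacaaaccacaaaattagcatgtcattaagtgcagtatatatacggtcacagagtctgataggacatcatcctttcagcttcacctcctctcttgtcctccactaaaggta
Csn1s2a: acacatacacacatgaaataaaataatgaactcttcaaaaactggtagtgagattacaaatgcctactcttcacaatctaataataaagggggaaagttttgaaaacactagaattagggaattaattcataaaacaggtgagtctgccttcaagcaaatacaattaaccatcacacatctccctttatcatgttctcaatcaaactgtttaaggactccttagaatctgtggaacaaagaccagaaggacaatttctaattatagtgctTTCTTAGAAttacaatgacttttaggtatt
Glycam1: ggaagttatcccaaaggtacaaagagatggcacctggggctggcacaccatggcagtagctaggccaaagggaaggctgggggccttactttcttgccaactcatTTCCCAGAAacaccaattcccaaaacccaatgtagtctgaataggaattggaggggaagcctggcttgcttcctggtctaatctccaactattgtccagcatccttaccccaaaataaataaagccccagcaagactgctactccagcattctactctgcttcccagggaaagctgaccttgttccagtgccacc
Wap: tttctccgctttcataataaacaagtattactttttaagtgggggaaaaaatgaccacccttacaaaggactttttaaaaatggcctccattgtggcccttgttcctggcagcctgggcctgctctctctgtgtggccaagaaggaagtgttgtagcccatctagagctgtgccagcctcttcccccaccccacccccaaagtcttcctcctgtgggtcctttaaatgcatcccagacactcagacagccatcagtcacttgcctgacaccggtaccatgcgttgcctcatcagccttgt
Lalba: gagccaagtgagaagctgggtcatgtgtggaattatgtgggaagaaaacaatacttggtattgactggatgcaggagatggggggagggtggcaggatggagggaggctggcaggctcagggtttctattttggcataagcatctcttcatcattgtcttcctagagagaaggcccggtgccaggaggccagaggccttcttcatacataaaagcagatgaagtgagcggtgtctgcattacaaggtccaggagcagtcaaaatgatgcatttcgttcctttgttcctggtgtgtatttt
The windows lie at chr5:87665958-87666257 (plus strand) for Csn1s1, chr5:87699376-87699675 (minus) for Csn2 and chr5:87774200-87774499 (plus) for Csn1s2a. Those of the other genes lie at chr15:103565032-103565331 (minus) for Glycam1, chr11:6638600-6638899 (minus) for Wap and chr15:98482634-98482933 (minus) for Lalba. Csn1s1 and Csn1s2a share the 9 letters TTCTTAGAA, which begin 100 bases before the start in Csn1s1 and at base 21 after it in Csn1s2a. The GENCODE start of Csn1s2a lies 117 bases downstream of the RefSeq start, so the match begins 97 bases before that start. The GENCODE start of Csn2 lies 205 bases upstream of the RefSeq start used here, so both of its matches lie within the GENCODE gene. Csn2 holds TTCTTGGAA, beginning 93 bases before the start, and also TTCTTGGGAA, which begins 140 bases before it and has the same TTC and GAA ends set 4 bases apart. Glycam1 holds TTCCCAGAA, beginning 145 bases before the start. The palindrome thus occurred in 4 of 6 windows, and in 2726 of all 32851 RefSeq windows of that length (8.30%). The longer form occurred in 2284 of them (6.95%). The palindrome reads the same on both strands, so searching 1 strand covers both, and the 2 forms do not overlap in Csn2. Wap and Lalba had no match of either form in these windows, which says only that these letters are not there.

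Each library held 4410399 to 6221181 counts on genes, and a count of 0 allowed a level of up to 0.482 to 0.680 CPM (3 counts, covering counting error only). CPM is the count scaled to library size by TMM factors. The targeted genes matched the labels: Hspa1b stood at 0 to 0.657 CPM in KO libraries and 28.7 to 81.1 CPM in WT libraries. PyMT transcripts stood at 8575 to 15448 CPM in KO libraries and 7294 to 10167 CPM in WT libraries. Reads without a match to the genome took 11.0% to 21.8% of the fragments in KO libraries. In WT libraries they took 12.2% in WT 1 and 27.1% in WT 4, the lowest and the highest share of that group, against 21.1% in WT 2 and 15.2% in WT 3. The share of WT 1 lay within the KO range and that of WT 4 above it. WT 1 and WT 4 stood apart from the other 7 libraries in most of the milk protein genes described next.

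Milk protein transcripts were found in all tumors, and for most members the 5 KO tumors and 2 of the 4 WT tumors were low and overlapped. WT 1 and WT 4 were far higher in Csn1s1, Csn2, Csn1s2a, Csn1s2b, Wap and Glycam1. No member was called between KO and WT by edgeR (adjusted p under 0.05), against 0.0886% of all 14665 genes tested. Of the 7 tested members, 6 were lower in KO at an unadjusted p under 0.05, against 4.59% of all genes lower by that measure. All 7 fold changes were negative, and their median on the log2 scale was -3.32, against -0.000078 over all genes tested. Lalba alone among the members had all KO libraries below all WT libraries, a pattern that 1.26% of tested genes showed. DESeq2 called 4 members lower in KO (Csn1s2a, Csn2, Lalba and Glycam1), against 0.174% of its 19569 genes.

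**Figure D1:**
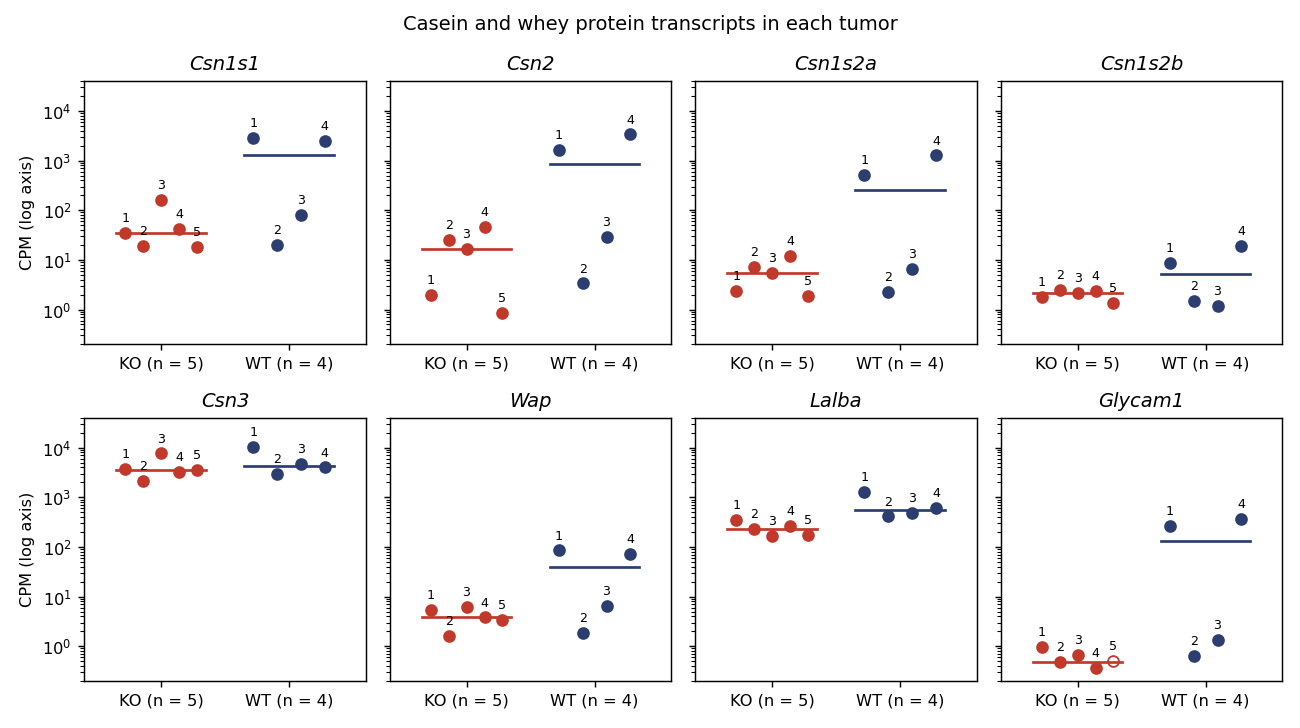
Level of each casein and whey protein gene in CPM on a log axis, 1 point per library with its number, KO left of WT, and a bar at the group median. An open point is a library with 0 counts, drawn at the level that a count of 0 allows. WT 1 and WT 4 stand above all other libraries in each gene except Csn3, where KO 3 is second to WT 1 and WT 4 lies among the others; for Lalba the other WT libraries are also above all KO libraries.

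The 4 calcium-sensitive caseins lie in 1 cluster on chromosome 5, and all were highest in WT 1 and WT 4, as Wap and Glycam1 on other chromosomes were. In the other libraries they did not all vary together. Csn2 and Csn1s2a were alike there, both highest in KO 4, next in KO 2 and WT 3, and lowest in KO 5. Csn1s1 was instead highest in KO 3. Csn1s2b had too few counts to rank these libraries (15 in KO 2, 13 in KO 3 and KO 4). Csn1s1 (ENSMUSG00000070702.9, chr5:87666208-87682578, plus strand, GRCm38) encodes alpha-s1-casein, which takes part in casein transport out of the endoplasmic reticulum. It stood at 34.3, 19.2, 161, 41.3 and 18.0 CPM in KO 1 to KO 5, against 2833, 19.9, 81.4 and 2522 CPM in WT 1 to WT 4. The groups overlapped: WT 2 and WT 3 lay within the range of the KO libraries, and WT 1 and WT 4 far above it. The log2 fold change was -4.64 ± 1.25 (SE; edgeR adjusted p = 0.475). Between the lowest and the highest library the level differed 8.96-fold within KO and 143-fold within WT.

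Csn2 (chr5:87692624-87699630, minus strand) encodes beta-casein, the major casein of mouse milk. Its level was 1.97, 25.3, 16.6, 46.0 and 0.855 CPM in KO 1 to KO 5, against 1654, 3.34, 29.2 and 3375 CPM in WT 1 to WT 4. Here WT 4 was the highest and WT 1 the next, whereas WT 2 and WT 3 lay within the KO range, in which KO 1 and KO 5 were lowest. The log2 fold change was -6.12 ± 1.63 (SE; edgeR adjusted p = 0.470, DESeq2 adjusted p = 0.0279). Its spread was the widest of the 7 tested members, 53.8-fold within KO, where the lowest library held 5 counts, and 1009-fold within WT.

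Csn1s2a (chr5:87774567-87788797, plus strand), the mouse gamma-casein gene, had 2.36, 7.33, 5.42, 12.1 and 1.88 CPM in KO 1 to KO 5, against 513, 2.30, 6.48 and 1267 CPM in WT 1 to WT 4. The pattern was that of Csn2, with WT 4 above WT 1 and the other libraries mixed. Its log2 fold change was -6.25 ± 1.47 (SE; edgeR adjusted p = 0.345, DESeq2 adjusted p = 0.00366). Csn1s2b (chr5:87808082-87824426, plus strand), the delta-casein gene, was the scarcest of the cluster, with 58 counts in all KO libraries and 137 in all WT libraries. It had 1.77, 2.44, 2.13, 2.35 and 1.37 CPM in KO 1 to KO 5, against 8.84, 1.46, 1.16 and 19.0 CPM in WT 1 to WT 4. WT 3 was the lowest library of all, and WT 1 and WT 4 were again the highest. The log2 fold change was -1.88 ± 0.70 (SE; edgeR adjusted p = 0.616), and without WT 4 it was -0.88.

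Csn3 (chr5:87925579-87932665, plus strand), the kappa-casein gene, stood apart from the rest. Its level was 3737, 2168, 7672, 3230 and 3585 CPM in KO 1 to KO 5, against 10351, 2934, 4635 and 3983 CPM in WT 1 to WT 4. It was abundant in all 9 tumors and the groups overlapped, with WT 1 highest, KO 3 next, and WT 4 in the middle of the libraries. The log2 fold change was -0.43 ± 0.41 (SE; edgeR adjusted p = 0.807), and it was 0.083 without WT 1. The spread between libraries was 3.54-fold within KO and 3.53-fold within WT. An antisense gene, 1700066N21Rik, overlaps Csn3, but it had 3 counts in all libraries together. The sources used here do not state whether counting used strand, so reads of the pair could not be told apart without it.

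The whey protein genes lie outside the cluster. Wap (chr11:6635482-6638637, minus strand) stood at 5.32, 1.63, 6.24, 3.79 and 3.42 CPM in KO 1 to KO 5, against 84.9, 1.88, 6.48 and 71.4 CPM in WT 1 to WT 4. WT 2 lay within the KO range, WT 3 just above it, and WT 1 and WT 4 more than an order of magnitude higher. The log2 fold change was -3.32 ± 0.87 (SE; edgeR adjusted p = 0.466, DESeq2 adjusted p = 0.108). Lalba (chr15:98480400-98482721, minus strand) had 355, 229.8, 166, 263 and 178 CPM in KO 1 to KO 5, against 1283, 413, 484 and 612 CPM in WT 1 to WT 4. The groups did not overlap, WT 1 was the highest, and the gap between the highest KO and the lowest WT library was small. Its log2 fold change was -1.55 ± 0.34 (SE; edgeR adjusted p = 0.256, DESeq2 adjusted p = 0.0034). Without WT 1 and WT 4, libraries picked for their casein counts, it was -0.92 ± 0.26 (SE; edgeR adjusted p = 0.760).

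Glycam1 (chr15:103562759-103565081, minus strand) was close to an on-or-off measurement. It had 5, 3, 4, 2 and 0 counts in KO 1 to KO 5, against 1146, 3, 8 and 1669 counts in WT 1 to WT 4. In scaled units these are 0 to 0.985 CPM in KO libraries, against 267 CPM in WT 1, 374 CPM in WT 4, 0.627 CPM in WT 2 and 1.33 CPM in WT 3. All KO libraries, WT 2 and WT 3 were thus near the level that a count of 0 allows, and the groups overlapped. Because only 2 libraries had more than 8 counts, Glycam1 did not pass the filter on low counts and was not part of the main test. With no such filter its log2 fold change was -8.28 ± 1.33 (SE; edgeR adjusted p = 0.0118, DESeq2 adjusted p = 0.000208), a difference that WT 1 and WT 4 carry. Among genes with a mean count of at least 50 it was -8.29 ± 1.77 and was not called (SE; edgeR adjusted p = 0.342). Markers of high endothelial venules, the other known source of Glycam1, summed to 0.394 to 1.48 CPM in KO libraries and 0.627 to 2.33 CPM in WT libraries over 5 genes. The highest sums were those of WT 1 (2.33 CPM) and WT 4 (2.01 CPM), the libraries high in Glycam1. Chst4, a defining marker, had 0 counts in every library and none of the 5 passed the count filter; their part in the Glycam1 level was not tested.

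**Figure D2:**
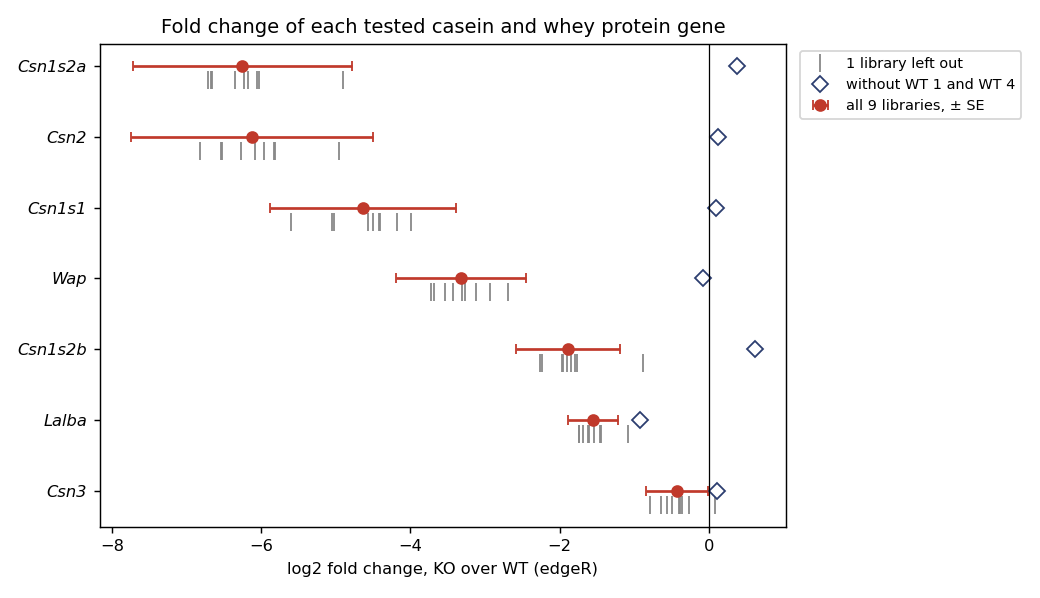
Log2 fold change, KO over WT, of the 7 tested members by edgeR, with bars for ± SE. Grey marks give the value with each library left out in turn, and open diamonds the value without WT 1 and WT 4. With those 2 libraries left out, Lalba stays at -0.92 and Wap lies near 0, while the caseins lie between 0.10 and 0.62. WT 1 and WT 4 were the 2 highest libraries of each gene shown except Csn3, so an upward shift of the others follows from the choice.

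The spread between tumors within a genotype was itself unusual. The biological coefficient of variation, which edgeR fits per gene after genotype is taken out, was 1.31 for Csn2, 1.16 for Csn1s2a and 1.06 for Csn1s1, against a median of 0.209 over the 14665 genes. Csn2 ranked 5, Csn1s2a 10 and Csn1s1 19 from the highest of all genes. Wap followed with 0.814 (rank 52) and Csn1s2b with 0.672 (rank 114). Csn3 (0.426, rank 740) and Lalba (0.355, rank 1481) were far less variable. Leaving out any single library kept 5 or 6 members lower in KO at an unadjusted p under 0.05. Leaving out both WT 1 and WT 4 kept 1, Lalba. Those libraries were picked for their casein counts and were the highest in each tested member except Csn3. An upward shift of the fold changes of these members follows from that choice. The count without WT 1 and WT 4 is therefore no test of how stable the differences are.

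The make-up of the milk protein RNA also differed between tumors. The 8 genes together took 0.422%, 0.242%, 0.855%, 0.3604% and 0.380% of all gene counts in KO 1 to KO 5, against 1.66%, 0.332%, 0.553% and 1.08% in WT 1 to WT 4. The summed share of KO 3 was thus above that of WT 2 and WT 3. Of the counts of the 8 genes, Csn3 took 90.3%, 88.3%, 95.5%, 89.7% and 94.6% in KO 1 to KO 5, against 60.9%, 86.9%, 88.4% and 32.6% in WT 1 to WT 4. Csn3 was the larger part of the sum in each library except WT 4. Csn2 took 0.0226% to 1.28% of these counts in KO libraries, against 9.73% in WT 1, 0.0990% in WT 2, 0.558% in WT 3 and 27.6% in WT 4. Without Csn3, the other 7 genes summed to 402, 286, 358, 369 and 203 CPM in KO 1 to KO 5, against 6642, 442, 610 and 8239 CPM in WT 1 to WT 4. Without Csn3, then, every KO library was below every WT library; Lalba made up most of that sum in the KO libraries except KO 3, and in WT 2 and WT 3.

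**Figure D3:**
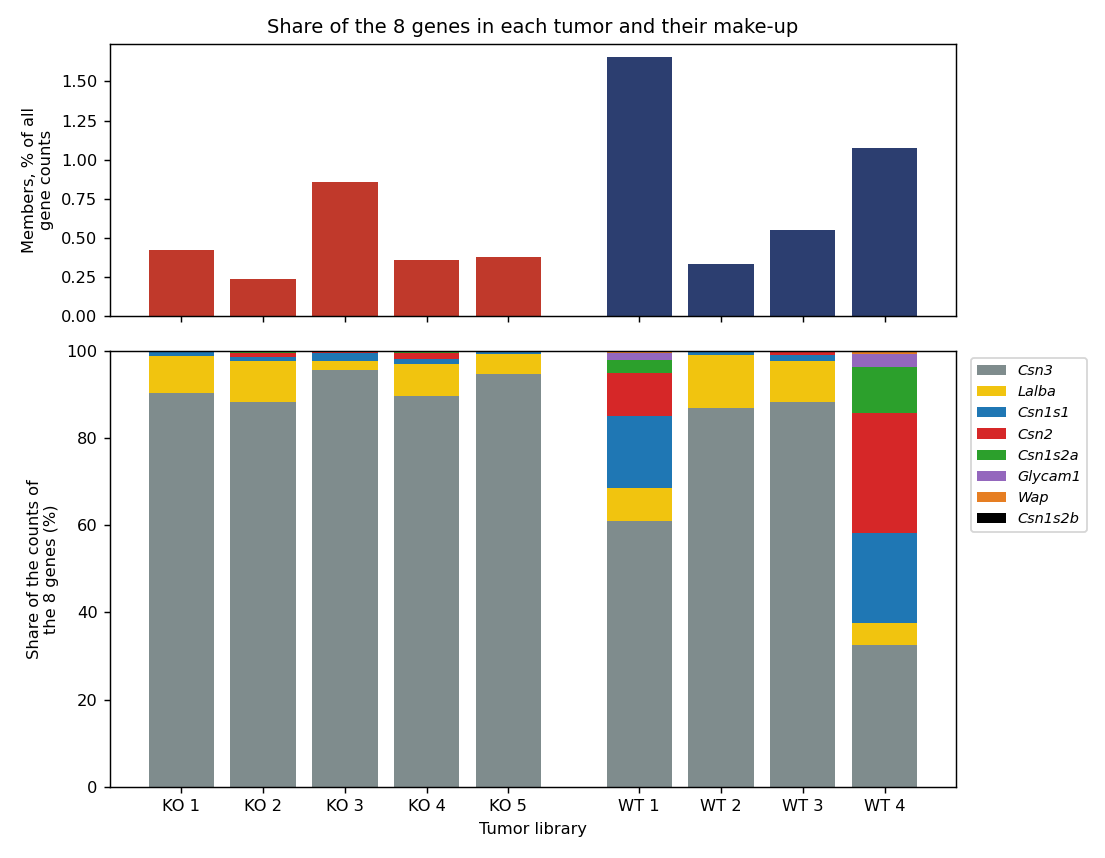
Upper panel: counts of the 8 genes as a percentage of all gene counts in each library, KO left of WT. Lower panel: share of each gene in the counts of the 8. Csn3 and Lalba fill nearly all of each KO bar and of the WT 2 and WT 3 bars, while Csn1s1, Csn2 and Csn1s2a take a large part of WT 1 and WT 4.

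Per length of exon, Csn3 and Lalba were the leading members in all KO libraries, WT 2 and WT 3. In KO libraries Csn3 reached 847 to 2996 CPM per kilobase of exon and Lalba 215 to 460 CPM per kilobase. These 2 ranges did not overlap with each other or with those of the other members. Csn1s1 (12.7 to 114), Csn2 (0.635 to 34.2), Csn1s2a (2.04 to 13.1) and Wap (2.96 to 11.3 CPM per kilobase) each overlapped with at least 1 other of these genes, and Csn2 was above Csn1s1 in KO 2 and KO 4. In KO libraries neither Csn1s2b nor Glycam1 exceeded 1.48 CPM per kilobase. In WT libraries the ranges were wide: 1146 to 4042 CPM per kilobase for Csn3, 536 to 1664 for Lalba, 14.0 to 2001 for Csn1s1 and 2.48 to 2507 for Csn2. Only in WT 4 did Csn2 and Csn1s1 exceed Csn3, and in WT 1 the order was Csn3, Csn1s1, Lalba and Csn2.

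Within the casein cluster nearly all counts came from the casein genes. From Csn1s1 to Csn3 the cluster spans 266 kb and holds 14 annotated genes, 5 of them members. The other 9, which include Odam and Prr27, had 27 counts in all libraries together and none could be tested. Outside Wap, Tbrg4 lies 9.42 kb away and had 55.8 ± 6.17 CPM in KO (SD, n = 5) and 49.3 ± 6.01 CPM in WT (SD, n = 4), a log2 difference of 0.18 ± 0.13, KO over WT (SE; edgeR adjusted p = 0.721). The nearest gene of Glycam1 with at least 1 CPM, Pde1b, differed by -0.37 ± 0.28 on the log2 scale, KO over WT (SE; edgeR adjusted p = 0.732). On the other side of Wap, Igfbp3 (567 kb away) differed by -1.12 ± 0.55 (SE, edgeR adjusted p = 0.642) and was highest in WT 1 (61.9 CPM). Beside Lalba, Olfr279 (9.68 kb away) was scarce and not tested. It stood at 0.342 to 0.657 CPM in KO and 0.698 to 2.69 CPM in WT libraries. The KO libraries and WT 1 were near the level that a count of 0 allows (0.482 to 0.680 CPM), so these values do not separate the groups. Zfp641, on the other side of Lalba, differed by 0.35 ± 0.19 (SE, edgeR adjusted p = 0.660). No 50-base stretch of the members' coding transcripts occurred in another gene among the annotated transcripts, so reads of that length from them match 1 annotated gene.

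**Figure D4:**
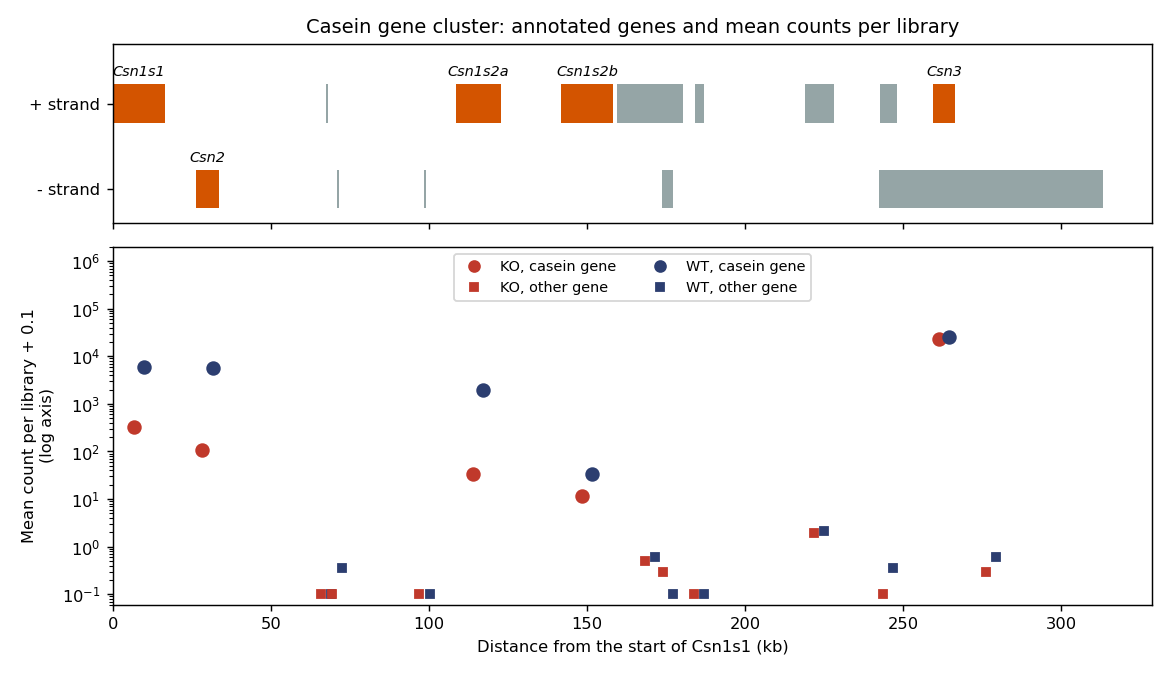
Upper panel: the 14 annotated genes of the casein cluster by strand, in kb from the start of Csn1s1, casein genes in orange and other genes in grey. Lower panel: mean count per library plus 0.1 on a log axis, KO left of WT for each gene. The casein genes stand above the other genes, which had 27 counts in all, and KO and WT are nearly level for Csn3.

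Transcripts of the prolactin route were measured beside the caseins; the activity of its proteins was not measured. The list of the prolactin route holds prolactin, its receptor, JAK2, STAT5 and their inhibitors, and also the growth hormone receptor, STAT3 and PTPN11. Of its 13 genes, 12 were tested, and 0 were called by edgeR. None passed an unadjusted p under 0.05 in either direction, and the median log2 fold change was -0.11. Prl, the hormone, had 0 counts in every library. Prlr, its receptor, stood at 580, 599, 467, 223 and 232 CPM in KO 1 to KO 5, against 377, 684, 321 and 168 CPM in WT 1 to WT 4. WT 2 was the highest and WT 4, one of the casein-rich libraries, the lowest (log2 fold change 0.12 ± 0.41, SE; edgeR adjusted p = 0.956). Stat5a stood at 136, 233, 94.1, 155 and 116 CPM in KO 1 to KO 5, against 98.8, 405, 115 and 162 CPM in WT 1 to WT 4. Again WT 2, which had few transcripts of the calcium-sensitive caseins, was the highest. Stat5b, the close relative of Stat5a, had a log2 fold change of -0.046 ± 0.21 and Jak2, the receptor's kinase, -0.23 ± 0.25 (SE; edgeR adjusted p = 0.967 and 0.830). Cish and Socs2 are induced by STAT5 and dampen its signal. Cish stood at 38.4, 48.4, 34.6, 40.1 and 30.3 CPM in KO 1 to KO 5, against 29.8, 43.5, 26.6 and 62.4 CPM in WT 1 to WT 4. Socs2 stood at 66.0, 58.5, 75.7, 65.4 and 68.4 CPM in KO 1 to KO 5, against 82.8, 84.4, 54.7 and 116 CPM in WT 1 to WT 4. WT 4 was the highest library for both, while WT 1 lay below all KO libraries for Cish and above them for Socs2 (edgeR adjusted p = 0.952 for Cish and 0.661 for Socs2).

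Among 14 transcription factors known to act on milk genes or alveolar cells, all were tested and 0 were called. Against 4.59% of all genes tested, 1 of the 14 was lower in KO at an unadjusted p under 0.05. This was Elf5, an ETS factor required for alveolar development. It stood at 279.5, 269.5, 266, 298 and 259 CPM in KO 1 to KO 5, against 356, 292, 289 and 451 CPM in WT 1 to WT 4. WT 1 and WT 4 were the highest, and WT 2 and WT 3 lay just below KO 4. The log2 fold change was -0.34 ± 0.15 (SE; edgeR adjusted p = 0.616). It was near that of Csn3 (-0.43 ± 0.41, SE) and smaller in size than those of the other caseins. The part of Elf5 in the casein levels was not tested. Nfia (0.18 ± 0.10) and Ehf (-0.17 ± 0.14, SE) were next in that list, with edgeR adjusted p-values of 0.670 and 0.769. Of 9 genes for hormones, local ligands and their receptors, 6 were tested, and Nrg1, the neuregulin ligand of ERBB3 and ERBB4, was higher in KO at an unadjusted p under 0.05. Nrg1 stood at 43.3, 116, 38.7, 32.9 and 25.5 CPM in KO 1 to KO 5, against 34.6, 28.6, 16.1 and 26.2 CPM in WT 1 to WT 4. The groups overlapped, and KO 2 was the highest (log2 fold change 0.96 ± 0.42, SE; edgeR adjusted p = 0.616). Tnfrsf11a, the receptor RANK, was -0.37 ± 0.18 and Erbb4 0.29 ± 0.16 (log2 fold change, SE).

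**Figure D5:**
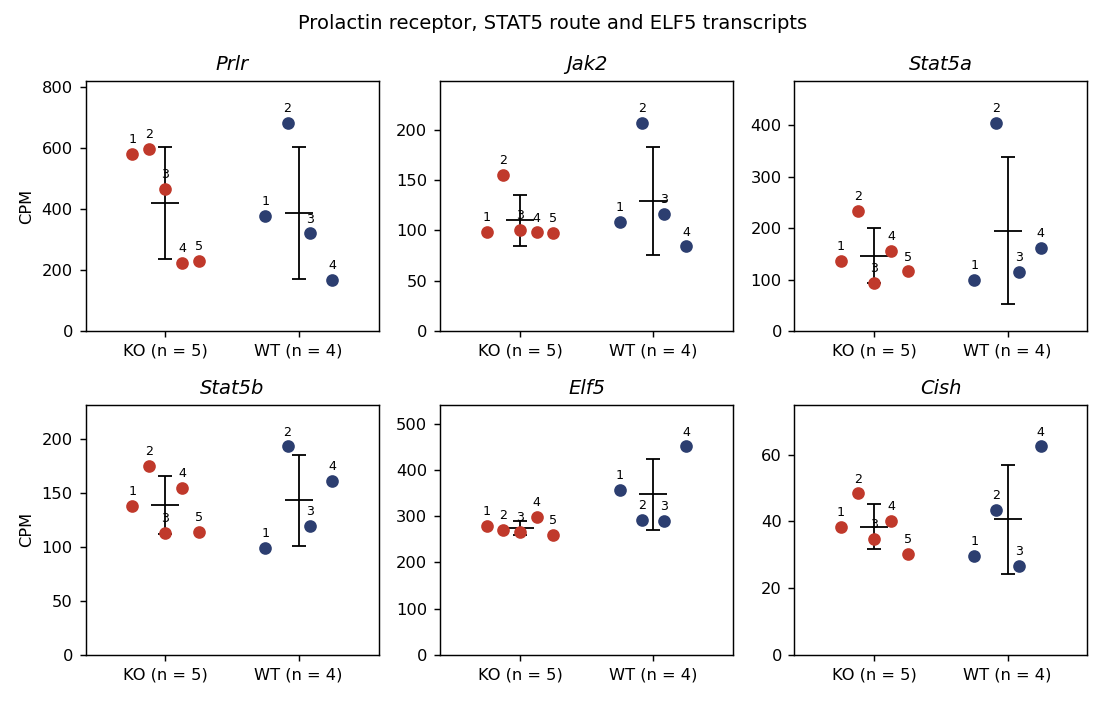
Levels in CPM of the prolactin receptor, JAK2, both STAT5 genes, Elf5 and the STAT5 target Cish, 1 numbered point per library, KO left of WT, with the group mean and ± SD as black bars. WT 2 is highest in Prlr, Jak2, Stat5a and Stat5b, while WT 4 is highest in Elf5 and Cish.

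Other genes of milk were on balance lower in KO, none of them called by edgeR. Of 14 genes for further secreted milk proteins, 12 were tested, all 12 had a negative log2 fold change, and 7 were lower at an unadjusted p under 0.05 (median -0.67). Over all genes tested, 4.59% were lower at that p and the median log2 fold change was -0.000078. Every KO library was below every WT library for 1.26% of all genes tested. Ltf, which encodes the iron-binding protein lactoferrin, stood at 873, 644, 712, 1048 and 1186 CPM in KO 1 to KO 5, against 2171, 1221, 1873 and 1988 CPM in WT 1 to WT 4. The groups did not overlap, and WT 3, low in most caseins, was close to WT 1 and WT 4 (log2 fold change -1.02 ± 0.22, SE; edgeR adjusted p = 0.256, DESeq2 adjusted p = 0.00464). Pigr, the receptor that carries immunoglobulin A into milk, stood at 161, 96.8, 127, 145 and 159 CPM in KO 1 to KO 5, against 447, 213, 262 and 249 CPM in WT 1 to WT 4. These groups did not overlap either (log2 fold change -1.09 ± 0.22, SE; edgeR adjusted p = 0.234, DESeq2 adjusted p = 0.00443). Cel, the bile salt-stimulated lipase of milk, differed by -2.24 ± 0.56 on the log2 scale, KO over WT (SE; edgeR adjusted p = 0.413, DESeq2 adjusted p = 0.0345). B4galt1, the partner of alpha-lactalbumin and named here after its values were seen, stood at 163, 152, 167, 166 and 166 CPM in KO 1 to KO 5, against 364, 171, 205 and 189 CPM in WT 1 to WT 4. It shared with Lalba the lack of overlap and the high value in WT 1 (log2 fold change -0.51 ± 0.20, SE; edgeR adjusted p = 0.616).

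Of 18 genes for milk fat and secretory activation, 16 were tested, 15 had a negative log2 fold change, and 6 were lower in KO at an unadjusted p under 0.05 (median -0.26). Over all genes tested, 4.59% were lower at that p, and 1.26% had every KO library below every WT library. Btn1a1 encodes butyrophilin of the milk fat globule membrane. It stood at 93.4, 179, 57.1, 85.4 and 37.6 CPM in KO 1 to KO 5, against 315, 177, 73.1 and 748 CPM in WT 1 to WT 4. As with the caseins, WT 1 and WT 4 were above the other libraries, which overlapped (log2 fold change -1.86 ± 0.59, SE; edgeR adjusted p = 0.613). Slc34a2, a phosphate transporter of the apical membrane, stood at 67.4, 67.8, 42.7, 55.2 and 54.9 CPM in KO 1 to KO 5, against 185, 84.9, 75.4 and 157 CPM in WT 1 to WT 4. Its groups did not overlap (log2 fold change -1.12 ± 0.26, SE; edgeR adjusted p = 0.345, DESeq2 adjusted p = 0.0224). Plin2, which coats lipid droplets, differed by -0.64 ± 0.19 on the log2 scale, KO over WT (SE; edgeR adjusted p = 0.538). The fatty acid synthase gene Fasn, also named after its values were seen, differed little (-0.056 ± 0.12, SE; edgeR adjusted p = 0.928).

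In bulk tumor RNA, fewer cells of a type and less RNA per cell cannot be told apart, so the markers of the cells that make milk and of those around them are set beside these values. Of all genes tested, 4.59% were lower in KO at an unadjusted p under 0.05, and the median log2 fold change over all of them was -0.000078. All 10 luminal epithelial markers had a negative log2 fold change, 4 at an unadjusted p under 0.05 (median -0.50), and they summed to 3289 to 3950 CPM in KO libraries and 3354 to 7016 CPM in WT libraries. Muc1 was the first of them by p (log2 fold change -0.76 ± 0.16, SE; edgeR adjusted p = 0.242, DESeq2 adjusted p = 0.00844). Of 8 luminal progenitor and alveolar markers, 7 were tested and 3 were lower at an unadjusted p under 0.05 (Cd14, Aldh1a3 and Elf5, median -0.34), with sums of 1352 to 1449 CPM in KO and 1316 to 2285 CPM in WT libraries. Both ranges overlapped between the groups. The luminal sum was highest in WT 2 and near the lowest in WT 4, whereas the progenitor and alveolar sum was highest in WT 1 and next in WT 4, with WT 2 and WT 3 close to the KO libraries. The 9 basal and myoepithelial markers had 0 at that p and summed to 134 to 214 CPM in KO and 149 to 259 CPM in WT libraries. The 8 fibroblast markers had 5 lower and summed to 292 to 643 CPM in KO and 752 to 1047 CPM in WT libraries. Col1a2 was the first of these (log2 fold change -1.12 ± 0.23, SE; edgeR adjusted p = 0.222, DESeq2 adjusted p = 0.00299). For the fibroblast sum, WT 4 was the highest library and every KO library was below every WT library. The 8 endothelial markers had 2 lower and summed to 33.5 to 92.4 CPM in KO and 71.1 to 159 CPM in WT libraries. The 8 macrophage markers had 1 lower (C1qc) and summed to 157 to 561 CPM in KO and 359 to 577 CPM in WT libraries. Both of these sums overlapped between KO and WT. Adipocyte markers, 5 of 9 tested, had 0 at that p and summed to 15.9 to 50.9 CPM in KO and 11.2 to 58.1 CPM in WT libraries. T cell markers, 3 of 7 tested, summed to 3.94 to 25.8 CPM in KO and 8.97 to 17.3 CPM in WT libraries. B cell markers, 1 of 7 tested, summed to 3.94 to 10.6 CPM in KO and 6.06 to 13.9 CPM in WT libraries. Both lists had 0 at that p among the few genes tested. The part of these cell types in the differences of the milk protein genes was not tested.

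The genes named next had levels most like the mean of the 7 tested members, each standardized over the 9 libraries. They were sought among 12449 genes whose average log2 CPM was 1 or more. That pool left out the members, pseudogenes and genes with only a predicted, Rik or identifier name. These correlations rest on 9 libraries that share the same 2 high ones, and they are given as a description. Lao1, an L-amino acid oxidase found in mouse milk, led with a Pearson r of 0.957. It stood at 6.08 to 9.75 CPM in KO libraries, against 107 CPM in WT 1, 7.11 in WT 2, 9.47 in WT 3 and 115 CPM in WT 4. Over the 7 libraries without WT 1 and WT 4 its r was 0.090, so its likeness lies in that pair. Aplp1 followed with 0.932, Igfals with 0.932, Slc28a3 with 0.931, Lbp with 0.930 and Tmprss6 with 0.930. Over the 7 other libraries their r was 0.894, 0.704, 0.502, 0.757 and 0.543 in that order. The genes most like Lalba were Tgfbr2 (r = 0.950), Angel1 (0.948) and Tspan14 (0.947), and without WT 1 and WT 4 these were 0.881, 0.867 and 0.843. Tgfbr2, a receptor for TGF-beta, stood at 260, 209, 205, 224 and 200.4 CPM in KO 1 to KO 5, against 393, 277, 243 and 269 CPM in WT 1 to WT 4. KO 1 lay above WT 3, so its groups overlapped, unlike those of Lalba (log2 fold change -0.43 ± 0.16, SE; edgeR adjusted p = 0.616).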

How the data were processed

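RNA of 9 dissociated mammary tumors (5 KO, 4 WT) was sequenced. STAR 2.5.4a, Trimmomatic 0.36, FastQC 0.11.5 and the GRCm38 build are named, per the submitters' processing notes; the sources used here give no settings, strand or annotation release. The deposited table holds unnormalized counts per gene and library made by the authors. It has 4 entries that name no gene (unmapped, multimapping, no feature, ambiguous), which were left out throughout; 28.2% to 38.3% of fragments fell on genes. Symbols were matched by identifier to the GENCODE M21 annotation for 55141 of 55401 mouse genes, and coordinates are from it.

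KO was compared with WT by edgeR 4.0.16 in R 4.3.3 (glmQLFit, glmQLFTest, two-sided) with genotype as the only term, TMM scaling and the filterByExpr count filter, adjusted by Benjamini-Hochberg over 14665 genes, with a threshold of 0.05. The SE is the log2 fold change over the square root of F. Log2 CPM for correlations used a prior count of 2. Levels per length are CPM divided by the kilobases of exon in the protein-coding transcripts; this gives the same order within a library as TPM, which had been planned. DESeq2 1.42.0, limma-voom (limma 3.58.1) with sample weights, other scaling, other count filters, a replicate block, age as a covariate and left-out libraries were alternatives. The fits were tested on simulated data.

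The members, gene lists and tests were chosen with earlier results of these data known. The genes named are the members, Prl, Prlr, Jak2, Stat5a, Stat5b, Elf5, Cish and Socs2, up to 3 members of each other list by unadjusted p, the 6 genes most like the members and the 3 most like Lalba, and Hspa1a and Hspa1b; exceptions are marked. Lists with no tested gene gave only sums: the casein cluster neighbours (7 of 8 matched) summed to 1.18 to 2.61 CPM in KO libraries and 0.418 to 3.26 CPM in WT libraries.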

Additional observations from a re-analysis of the deposited data

Results flagged for a closer look

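Among 60 genes examined within each group, 3 had 1 library far from the others of its group by Dixon's test at the 95% level on log2 CPM. Chance gives about 1 in 20 groups, and 120 groups were examined; 3 is below that share. None of the 3 was a casein or whey protein gene. For most of those genes WT 1 was not alone, as a further WT library was also far above the rest. The test looks for a single library apart from its group, so it could not flag these high WT libraries. Jak2 stood at 155 CPM in KO 2, against 97.8 to 100.5 CPM in the other KO libraries. Muc1 stood at 220.3 CPM in WT 1, against 135 to 141 CPM in the other WT libraries. Cdh5, an endothelial cadherin, stood at 25.1 CPM in WT 1, against 6.48 to 7.83 CPM in the other WT libraries.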

How the results depend on the processing

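No member was called by edgeR, and 6 of 7 were lower at an unadjusted p under 0.05. DESeq2 called 4 members and edgeR without a count filter called 3. The count of 6 became 1 with limma-voom and sample weights, and 1 without WT 1 and WT 4. The median log2 fold change of -3.32 became -1.47 with limma-voom and 0.11 without WT 1 and WT 4. Without those libraries, chosen for their casein counts, Csn1s1 (0.10), Csn1s2a (0.38), Csn1s2b (0.62), Csn2 (0.12) and Csn3 (0.11) turned positive, none called. Leaving out the 2 highest libraries of a gene raises its fold change by construction; for Csn3 only WT 1 was among them. With age as a covariate all 7 were lower at that p, none called, and the median was -4.21 (Csn3 -0.92). With 1 library left out, Csn3 ranged from -0.78 to 0.083. The cause of the limma-voom difference was not tested.

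No label says what a library number marks. Deviations of same-numbered libraries correlated at -0.02, 0.38, 0.11 and 0.38, and 5 of 8 libraries correlated best with their own number, so pairing was not taken as given. With the number as a replicate block, 2 members were lower at an unadjusted p under 0.05, none was called, and the median was -2.55 (Csn2 -3.58, Csn1s2a -3.86). Depth limits Glycam1 and Csn1s2b in the low libraries.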
